A study of Mus musculus with 2 samples.

Results

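The genes described here are 10 members of the BCL2 family, the proteins that decide whether the outer membrane of a mitochondrion stays intact. They were chosen by name and comprise the pro-survival genes Bcl2, Bcl2l1, Mcl1 and Bcl2a1b, the effector genes Bax and Bak1, and the BH3-only genes Bcl2l11, Bid, Bbc3 and Pmaip1. Of these 10 genes 9 matched a probe on the array, with 11 probes among 39419 probes that had a usable spot on both arrays. Bcl2a1b matched none and has no value here. All 11 probes were well above background on both arrays, so that all 9 genes were among the 16885 named genes measured in both conditions.

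RAW264.7 cells are a long-established macrophage line of the mouse, derived from an ascites tumour induced by Abelson murine leukemia virus in an adult male BALB/c mouse. Both groups were this line. In one the cells received vehicle control, and in the other IR-61, a near-infrared fluorescent small molecule that gathers in mitochondria, both for 24 h, with IR-61 at 10 μM according to a figure legend of the study. RNA of each condition was read on 1 single-colour Agilent array, so there was no replicate, no test was possible and every difference below compares 2 arrays rather than 2 conditions. A transformed line carries its own changes in survival pathways, which both groups shared.

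In a living cell the pro-survival proteins hold the effectors BAX and BAK in check and capture BH3-only proteins. The BH3-only proteins are sensors, each raised or activated by its own kind of stress, and they engage the pro-survival proteins or the effectors directly. Once free, BAX and BAK form pores in the outer mitochondrial membrane, cytochrome c leaves, and caspases are activated through APAF1. Macrophages are known to lean on MCL1, BCL-XL and the haematopoietic protein A1 for their survival.

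Among the 9 measured genes, Bcl2l11 was lower with IR-61 by 2-fold or more and no other was past that limit in either direction. Bcl2l11 encodes BIM, a BH3-only protein that binds all the pro-survival members, and its signal was 2.19-fold lower with IR-61 than with vehicle after scaling. Pmaip1, which encodes NOXA, and Bcl2l1, which encodes BCL-XL, were the members with the highest differences, at 1.37-fold and 1.29-fold higher. The other 6 genes, among them both effectors, lay within 0.25 of 0 on the log2 scale, as did 48.7% of all measured genes.

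Promoter sequences of Bcl2l11 and Bbc3 are shown because both genes were below 0 after scaling and both are known targets of FOXO transcription factors, whose forkhead core is GTAAACA. The windows come from RefSeq on the GRCm38.p6 build, run from 250 bases before a transcript start to 50 after it, and are written 5′ to 3′ with the forkhead core, read on either strand, in capitals. Bcl2l11 has 2 such windows on the plus strand of chromosome 2, at chr2:128125788-128126087 and chr2:128127325-128127624, and the second holds no forkhead core. Of the 3 windows of Bbc3, the one at chr7:16310011-16310310, also on the plus strand, is shown, and the others hold no forkhead core. Bcl2, Bax, Bak1 and Bid were below 0 after scaling too, and none of their windows holds the core. As both genes shown were picked by their values and by that knowledge, a link to the core was not tested.
Bcl2l11 upstream start: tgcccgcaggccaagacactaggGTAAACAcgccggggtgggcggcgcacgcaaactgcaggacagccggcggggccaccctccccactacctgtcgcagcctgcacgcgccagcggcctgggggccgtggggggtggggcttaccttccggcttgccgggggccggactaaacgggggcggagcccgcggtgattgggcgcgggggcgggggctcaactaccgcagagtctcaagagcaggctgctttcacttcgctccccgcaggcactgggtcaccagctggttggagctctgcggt
Bcl2l11 downstream start: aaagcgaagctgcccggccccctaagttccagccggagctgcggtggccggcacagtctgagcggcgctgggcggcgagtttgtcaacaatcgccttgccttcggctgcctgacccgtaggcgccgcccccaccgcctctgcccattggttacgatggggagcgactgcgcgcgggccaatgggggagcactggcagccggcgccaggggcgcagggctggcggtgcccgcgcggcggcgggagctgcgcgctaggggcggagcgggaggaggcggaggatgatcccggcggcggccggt
Bbc3 second start: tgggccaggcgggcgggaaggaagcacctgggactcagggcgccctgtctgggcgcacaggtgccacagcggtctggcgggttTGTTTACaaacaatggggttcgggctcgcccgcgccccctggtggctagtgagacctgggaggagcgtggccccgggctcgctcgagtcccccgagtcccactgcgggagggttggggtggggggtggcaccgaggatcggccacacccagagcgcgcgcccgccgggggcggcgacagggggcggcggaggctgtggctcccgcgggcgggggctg

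The forkhead core begins at base 24 of the upstream Bcl2l11 window and at base 84 of the Bbc3 window, where it lies on the opposite strand. It was found in 3.65% of the 32851 promoter windows of the table, and in 2 of the 14 windows of the 9 member genes that the table holds, Pmaip1 not being among them. The GC box GGGCGG stands in both Bcl2l11 windows and in the Bbc3 window, but 35.7% of all windows hold one, and 10 of the 14 member windows do. The E box CACGTG, in 7.15% of windows, was found for Bax and Bbc3, and an NF-kB motif, in 4.51%, for Bbc3 and Bcl2l1. The cyclic AMP element TGACGTCA, in 1.79% of windows, was found in none of the 14. These motifs were chosen with the windows in view, a match describes letters only, and no binding was measured.

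Bcl2a1b is the member without a value. It encodes A1, a pro-survival protein of blood cells, and belongs to a cluster of near-identical copies on mouse chromosome 9. Its promoter window lies at chr9:89199023-89199322 on the plus strand. Over an aligned stretch of 256 bases it matched the window of Bcl2a1a at 254 bases, or 99.2%, and the longest run without a difference, 174 bases, is printed to show how alike the copies are.
Bcl2a1b and Bcl2a1a shared run: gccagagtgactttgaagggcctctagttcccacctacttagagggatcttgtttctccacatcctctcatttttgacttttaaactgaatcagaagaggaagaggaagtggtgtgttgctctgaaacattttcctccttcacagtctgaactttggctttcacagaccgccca

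Further along the same window stands TGATGCAA, the composite element bound by ATF4 with a C/EBP partner, beginning at base 211. It is found in 0.895% of all windows and stands in the Bcl2a1a and Bcl2a1d windows too. Bcl2a1a had no probe by its accession. Bcl2a1d read 95180 with vehicle and 146516 with IR-61, and Bcl2a1c 6131 and 9079. After scaling these were log2 differences of 0.13 and 0.08. Since a probe for one copy may bind RNA of the others, the values are uncertain as to which copy they describe.

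A log2 difference here is IR-61 minus vehicle, after the 75th percentile of each array was subtracted from its log2 signals. That percentile was 10.30 for vehicle and 10.79 for IR-61, so unscaled signals ran higher with IR-61 for most probes. Over the 16885 measured genes the median log2 difference was 0.10 and the SD across genes 0.44, with 6554 genes lower and 10331 higher. Each member probe had 1 spot per array. The error given beside a difference is the SD expected for it from other probes printed 10 times on each array, 329 of them for vehicle and 340 for IR-61, taken in the same range of brightness. It covers noise within an array and leaves out the spread between cultures, which was not measured. The arrays shared a slide and a scan.

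**Figure D1:**
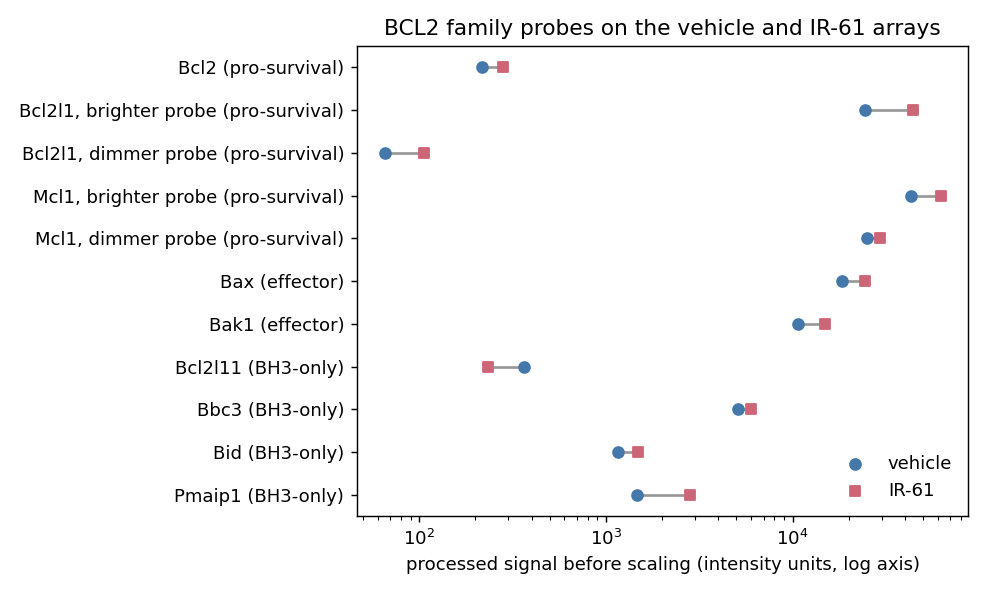
Processed signal of the 11 probes of the BCL2 family genes before scaling, in intensity units on a log axis, with the vehicle array as circles and the IR-61 array as squares. Bcl2l11 is the only probe whose signal was lower with IR-61, at 235 against 366, and probes differ in how well they bind, so that signals of different rows cannot be compared.

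Of the pro-survival genes, Bcl2l1 stood highest. It encodes BCL-XL, which also binds the voltage-dependent channel of the outer membrane. Its brighter probe read 24393 with vehicle and 44111 with IR-61. After scaling this was a log2 difference of 0.37 with an expected SD of 0.09, and it ranked 3755 from the highest of the measured genes. Its dimmer probe read 65.2 and 105, a difference of 0.20 with an expected SD of 0.23. Both probes were higher with IR-61, and the gap of 0.16 between them was smaller than the median gap of 0.32 between the brightest probes of the 4160 genes with several measured probes.

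Mcl1 encodes a short-lived pro-survival protein whose level follows its synthesis closely. Its brighter probe read 43048 with vehicle and 62182 with IR-61, and the scaled log2 values were 5.09 and 5.13. The dimmer probe read 24959 and 29535, with scaled values of 4.30 and 4.06. The differences were 0.04 and −0.25, each with an expected SD of 0.09, so the probes of Mcl1 lay on opposite sides of 0. The gap of 0.29 is within what other genes show between probes, of which 1 in 10 exceed 0.83. No direction is given for Mcl1.

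Bcl2, the founding member of the family, was read by 1 probe, annotated with 1 of its 2 RefSeq transcripts. The signal was 217 with vehicle and 281 with IR-61, and the scaled values were −2.54 and −2.66. The difference of −0.11 was smaller than its expected SD of 0.23. Among all genes 28.1% had a lower difference.

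The effectors both lay near 0. Bax, whose product moves from the cytosol to mitochondria when activated, read 18359 with vehicle and 24569 with IR-61, with scaled values of 3.86 and 3.79. Bak1, whose product sits in the outer membrane already, read 10740 and 15002, with scaled values of 3.09 and 3.08. Their differences of −0.07 and −0.01 were both smaller than the expected SD of 0.09. Set against the median of all genes they were −0.17 and −0.11.

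Of the BH3-only genes, Bcl2l11 stood lowest of all 9. Its probe is annotated with 1 of the 5 RefSeq transcripts of the gene, and which BIM isoforms it reads was not examined. The signal was 366 with vehicle and 235 with IR-61, and the scaled values were −1.79 and −2.92. The difference of −1.13 was 4.89 times its expected SD of 0.23, the highest multiple among the 11 probes, closely followed by 4.78 for Pmaip1. It ranked 170 from the lowest of the 16885 genes. Of the 11 probes it was the only one with less signal on the IR-61 array before any scaling.

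Bbc3 encodes PUMA, a BH3-only protein induced by p53. It read 5072 with vehicle and 6018 with IR-61, with scaled values of 2.01 and 1.76, and the difference was −0.24 with an expected SD of 0.09. Bid, whose product is cut by caspase-8 and carries the death receptor signal to mitochondria, read 1166 and 1485. Its scaled values were −0.11 and −0.26, and its difference of −0.14 was 1.48 times the expected SD. Both genes were lower after scaling and higher before it, so their direction against 0 rests on the scaling.

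Pmaip1 differed from the other BH3-only genes in direction. NOXA binds MCL1 and A1 above the other pro-survival proteins and promotes the loss of MCL1. Its probe read 1462 with vehicle and 2805 with IR-61, and the scaled values were 0.21 and 0.66. The difference was 0.45 with an expected SD of 0.09, the highest of the 9 genes, and it ranked 2766 from the highest of all measured genes.

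**Figure D2:**
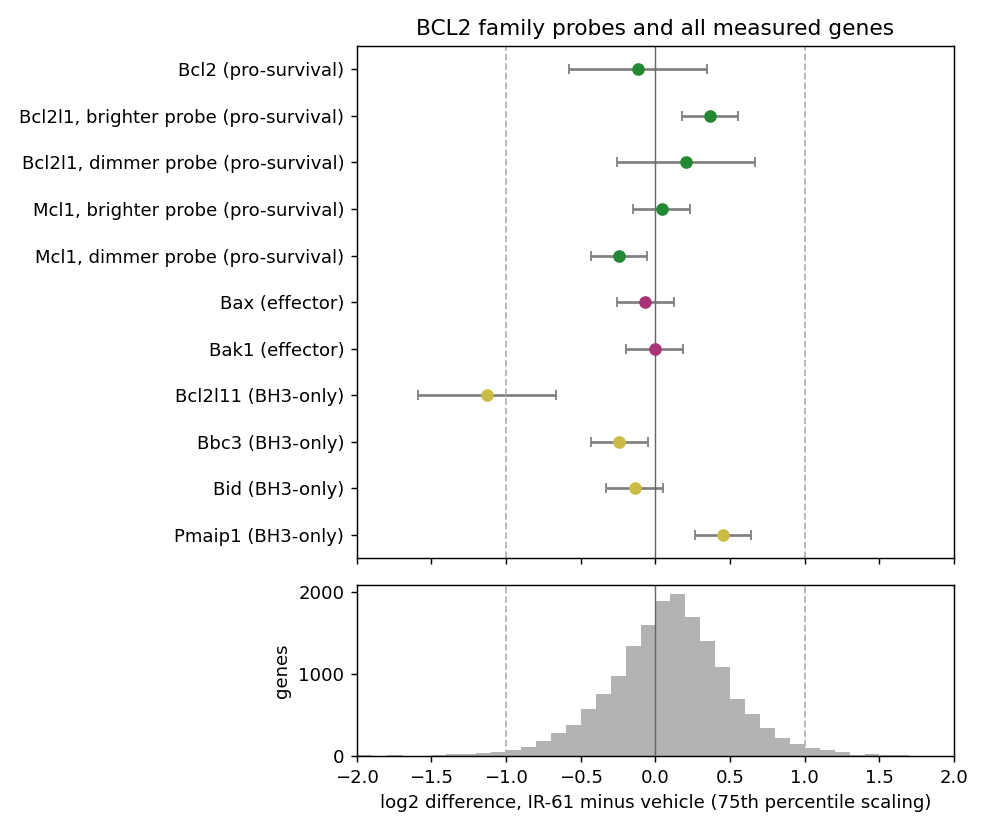
Scaled log2 difference, IR-61 minus vehicle, of the 11 BCL2 family probes (top; green pro-survival, purple effector, yellow BH3-only) above the distribution over measured genes (bottom; 48 of 16885 genes lie outside the axis). Bars are 2 expected SDs between spots to each side and dashed lines mark 2-fold; Bcl2l11 lies at −1.13, past the line, and Pmaip1 and Bcl2l1 at 0.45 and 0.37, inside it.

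By role, the median log2 difference was 0.04 over the 3 pro-survival genes, −0.04 over the 2 effectors and −0.19 over the 4 BH3-only genes, of which 3 were lower and 1 higher. Over all 9 genes it was −0.07, with 6 lower and 3 higher, beside 0.10 over all measured genes. With no scaling 1 was lower and 8 were higher. The count of 1 gene lower by 2-fold or more stands beside 1.39% of all measured genes, and the count of 0 higher beside 1.99%. At 1.5-fold the counts were again 1 lower, beside 5.69%, and 0 higher, beside 9.79%. Bcl2l11, Pmaip1, Bcl2l1 and Bbc3 had differences over 2 times their expected SD between spots. These 4 of 9 genes stand beside 37.7% of all measured genes, a share near that of the family.

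Differences between members do not depend on a single scaling constant, since it cancels within an array. The log2 difference of Bcl2l11 minus that of Bcl2 was −1.02 and minus that of Mcl1 −1.17, BIM being a partner of both products. Minus that of Bcl2l1 it lay between −1.52 and −1.33 over 14 processing settings, and all these values were negative in all 14. Settings that only shift an array by a constant could not change such differences, so the settings are not independent checks. Pmaip1 was higher relative to Mcl1, its main partner, by 0.41, with a range of 0.37 to 0.70 over the settings. Bax relative to Bcl2l1 was at −0.43 and Bak1 relative to Bcl2l1 at −0.37, both negative in all 14 settings. Bak1 relative to Mcl1, the pair that is held together in resting cells, was at −0.05 and took both signs, from −0.16 to 0.24.

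The settings were other scalings, the deposited log2 values, another background correction, other rules for choosing a probe or leaving out spots, and other filters. Bcl2l11 was lower in all 14, between −1.21 with median scaling and −0.64 with no scaling, and past 2-fold in 13, the exception being no scaling. A gene read by 1 probe could not change under the probe rules, and the filters left Bcl2l11 at −1.13 too. Those settings therefore add no separate support to such counts. Against the median of all genes in the same setting it lay between −1.23 and −0.99. Bcl2l1 was higher in all 14, from 0.20 to 0.85, and so was Pmaip1, from 0.37 to 0.94. Bcl2, Bax and Bbc3 were below 0 in 13 settings and above 0 with no scaling. Bid and Bak1 were below 0 in 12 and above 0 in 2, with no scaling for both, with normexp background correction for Bid, and with the trend over rows and columns removed for Bak1. Mcl1 was below 0 in 3 and above 0 in 11.

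With no scaling the median of all genes moved from 0.10 to 0.59, and members are therefore best read against it. With the 75th percentile, differences minus that median were 0.35 for Pmaip1, 0.27 for Bcl2l1 and −0.06 for the brighter probe of Mcl1. They were −0.11 for Bak1, −0.17 for Bax, −0.21 for Bcl2, −0.24 for Bid, −0.34 for Bbc3 and −1.23 for Bcl2l11. The split of genes past 2-fold moved with the scaling too. With the 75th percentile 41.2% of them were lower with IR-61, while median scaling gave 54.2%, quantile normalization 52.1%, loess 52.4%, normexp 54.6%, the deposited log2 values 51.4% and no scaling 3.23%.

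**Figure D3:**
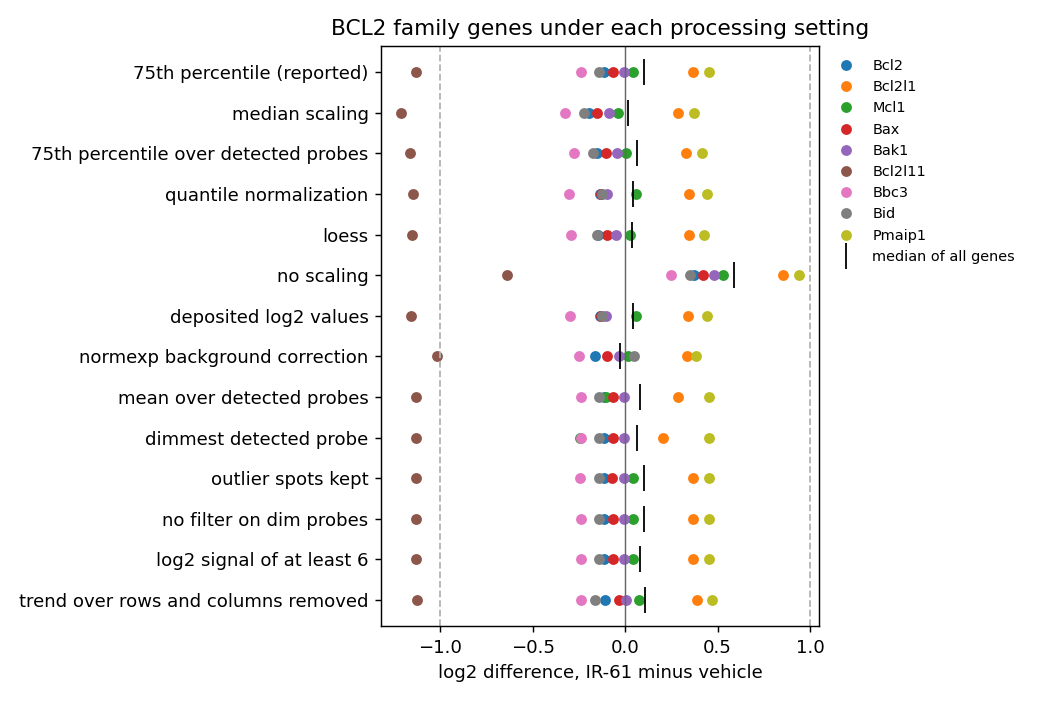
Log2 difference, IR-61 minus vehicle, of the 9 BCL2 family genes (coloured points) and the median of all measured genes (black ticks) under each of 14 processing settings, with dashed lines at 2-fold. Bcl2l11 lies apart on the left in each setting, from −1.21 to −0.64, while all points move to the right together with no scaling, when the median of all genes is at 0.59.

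The remaining members of the family that were measured had differences within 2-fold. Of the other pro-survival genes 4 of 6 were measured, with a median log2 difference of 0.11 and none past 2-fold. The lowest was Bcl2l12 at −0.17 and the highest Bcl2l2, which encodes BCL-W, at 0.42, although the second probe of Bcl2l2 gave 0.02. Of the other effector and BH3-only genes 8 of 10 were measured, with a median of 0.09, which was 0.27 over those with a log2 signal of at least 6, and none past 2-fold. Here the lowest was Hrk at −0.06, from signals of 29.4 and 39.4, and the highest Bcl2l13 at 0.44. Their expected SDs were 0.46 and 0.23. Dimmer probes gave 0.72 and 0.17 for Bnip3, beside 0.40, and 0.64 for Bcl2l14, beside −0.01. For Bad and Bnip3l dimmer probes went down to −0.24 and −0.29, beside 0.19 and −0.03. Bik, a BH3-only gene of the endoplasmic reticulum, was not well above background with vehicle and was so with IR-61. Its probe read 11.1 and 80.9, which was at least 4.50-fold higher, and 740 of the 20655 named genes had a bound in this direction. Bcl2l15 was not well above background on either array.

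The genes on either side of the family in the pathway varied from list to list, and these differences too moved with the scaling. All 8 list medians were above 0 with no scaling. The genes were taken from 8 lists with 87 genes, the other family members included, and of the 83 that were measured 3 were lower by 2-fold or more and 1 higher. The share lower was 3.61%, beside 1.39% of all measured genes, and the 1 gene higher stands beside 1.99%. The lists were chosen with earlier results of these data known, so no conclusion is drawn from these shares. The list labelled outer membrane partners, not all of which are proteins of that membrane, had a median of 0.03 over 12 genes. It ran from Tmbim6, first described as an inhibitor of BAX, at −0.62 to Vdac1 at 0.45. None was past 2-fold, and the median took both signs over the settings, with −0.06 under median scaling. The apoptosome and caspases, which act after cytochrome c has left, had a median of −0.06 over 13 genes, from Dffa at −0.49 to Aifm1 at 0.41, and none was past 2-fold.

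The inhibitor of apoptosis proteins had both the lowest and nearly the highest single differences of the lists. Birc3, which encodes cIAP2 and is a known NF-κB target, read 727 with vehicle and 269 with IR-61, a difference of −1.92 that ranked 36 from the lowest of all measured genes and was past 2-fold in all 14 settings. Xiap, whose product blocks caspases directly, read 8772 and 22193, a difference of 0.85, with a range of 0.77 to 1.34 over the settings. The median over the 9 genes was 0.39, with 4 lower and 5 higher, and it depended on the probe rule, at 0.27 with the mean over detected probes and 0.04 with the dimmest.

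In the death receptor route, which reaches the family through Bid, 1 of 10 genes was past 2-fold and the median was −0.22. Cflar encodes c-FLIP, which keeps caspase-8 from being activated. Its brightest probe read 3804 with vehicle and 2539 with IR-61, a difference of −1.07, and its other probes gave −0.89 and −1.70. It was below 0 in all 14 settings and past 2-fold in 12. Tnfrsf10b was the highest of the list at 0.44. At 1.5-fold 3 of the 10 genes were lower, namely Cflar, Fas at −0.88 and Traf1 at −0.78, and 0 were higher. The shares over all measured genes were 5.69% lower and 9.79% higher. Bid itself, the target of this route, was at −0.14.

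Among 18 factors known to act on transcription of family genes the median was −0.19, with 12 lower and 6 higher. Ddit3, which encodes CHOP and is known to raise Bcl2l11 under endoplasmic reticulum stress, read 2701 with vehicle and 1347 with IR-61. The difference was −1.49, the only one past 2-fold by the brightest probe, and Ddit3 was past it in all 14 settings. A dimmer probe of Atf4 gave −1.16 and one of Nfkb1 −1.25, where their brightest probes gave −0.48 and −0.27. Stat5b was the highest at 0.52. Of the FOXO genes, whose products bind the forkhead core shown above, Foxo1 was at −0.26, Foxo3 at −0.18 and Foxo4 at −0.49. Their expected SDs were 0.23, 0.23 and 0.46, and the dimmer probe of Foxo1 gave −0.11. Foxo4 read 22.6 on both arrays, near the lowest detected signal. Trp53, whose product induces Bbc3 and Pmaip1, was at 0.13 with an expected SD of 0.23. None of these differences was over 2 times its expected SD. The FOXO genes and Trp53 were picked out for that role after their values were seen, and RNA levels of such factors do not report their activity.

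Of 9 genes whose products set the stability of MCL1 and BIM the median was 0.22, with 2 lower and 7 higher, and with the mean over detected probes or the dimmest it was 0.07. Btrc, a subunit of a ubiquitin ligase that marks MCL1 for breakdown, was past 2-fold at 1.02, from signals of 153 and 437, while its other probe gave 0.33. It was past 2-fold in 7 of 14 settings and at 0.94 with median scaling and 0.64 with normexp. Usp9x, which removes ubiquitin from MCL1, was the lowest by brightest probe at −0.45. The brightest probe of Gsk3b gave 0.51, while its dimmer probes gave 1.12 and −0.64. Protein levels were not measured on these arrays.

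**Figure D4:**
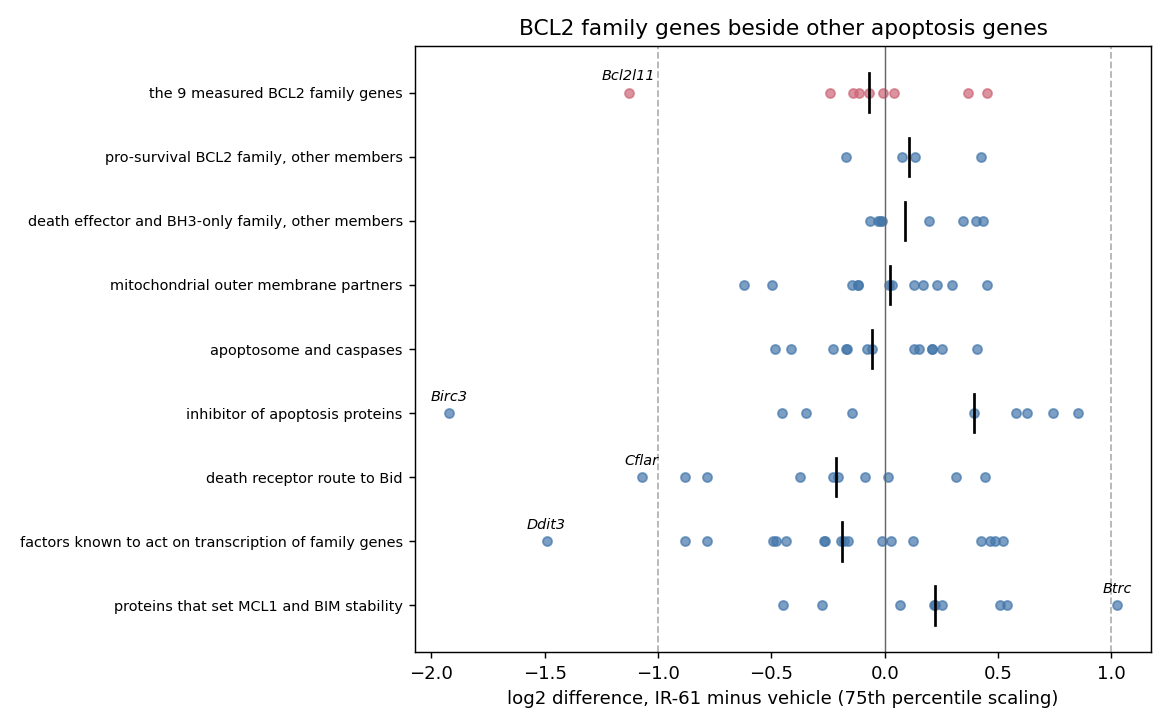
Log2 difference, IR-61 minus vehicle, of the 9 measured BCL2 family genes (red) and of 83 other genes in 8 lists (blue), 1 point per gene, with black bars at list medians and dashed lines at 2-fold. Bcl2l11 at −1.13, Birc3 at −1.92, Cflar at −1.07 and Ddit3 at −1.49 lie past the line on the left, and Btrc at 1.02 on the right.

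The labelled cell type was checked against marker genes. Of 10 macrophage markers 9 matched a probe and all 9 were well above background on both arrays, with log2 differences from −0.83 for Spi1 to 1.03 for Adgre1. Summed macrophage signals were 316612 with vehicle and 518046 with IR-61, with Adgre1 alone at 52489 and 149992. Sums in this paragraph are of signals before scaling, when most probes read higher with IR-61. After scaling Adgre1, Csf1r, Itgam and Fcgr1 were above 0, and Lyz2, Ptprc, Spi1, Mertk and Tyrobp below. All 4 fibroblast markers were above background too, with sums of 63871 and 108681, as were 4 of 4 B cell, 3 of 4 T cell, 2 of 4 epithelial and 2 of 4 adipocyte markers. Summed adipocyte signals were 86940.5 and 161101, nearly all from Fabp4 at 86908 and 161031. Summed B cell signals were 870 and 679, and neither array read Epcam, Cdh1, Cd3g, Adipoq or Lep well above background. Both samples were labelled as the RAW264.7 line alone, so markers of other cell types are not read as other cells being present. What gave those marker signals was not tested. On bulk RNA, fewer cells expressing a gene and less RNA per cell cannot be told apart. Probes well above background made up 77.6% with vehicle and 81.2% with IR-61, no spot was saturated, and 124 and 139 spots carried an outlier flag.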

How the data were processed

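One RAW264.7 sample per condition was grouped by its label. The authors deposited, per array, the intensity of each spot from Agilent Feature Extraction (version 11.0.1.1 per the file headers, 11.0.0.1 in the submitters' processing notes; the methods name an earlier one), background-subtracted and detrended, with 0/1 flags. They also deposited log2 values per probe by a method not given in the sources used here; these correlated with the scanner values at r = 0.9995 for vehicle and 0.9988 for IR-61 across probes and share quartiles.

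From the intensities, control and outlier-flagged spots were left out, spots of a probe averaged as log2, and the 75th percentile subtracted. Accessions were matched without version to RefSeq genes of GRCm38.p6, for names only because the design names mm9, naming 27224 probes. A gene took its brightest unsaturated probe. Signal not well above background on 1 array gave a bound against that array's lowest detected signal, 12.8 for vehicle and 15.0 for IR-61. The expected SD between spots was taken in 3 classes of brightness. With 1 array per condition no test was run, and the number of arrays limits the precision. The members, lists and motifs were chosen with earlier results of these data known. Named are all members, close copies of Bcl2a1b, and of each list, in each direction, the genes past 2-fold or otherwise its extreme. The FOXO genes, Trp53, Bik, Bcl2l15, Fas and Traf1 were added. Atf4, Nfkb1, Gsk3b, Bnip3, Bnip3l, Bcl2l14 and Bad were added for their dimmer probes. Steps were tested on simulated arrays. Alternatives were the scalings (median, detected probes, quantile, loess, none), the deposited values, normexp with an offset of 50, other probe rules, spot flags and filters, a trend over rows and columns, limits of 1.5-fold and 3-fold, and probes in place of genes. For normexp, 4 spots on the IR-61 array whose background exceeded their signal were given the median background. Python 3.11.15, numpy 2.4.6, pandas 2.3.3, statsmodels 0.14.6, matplotlib 3.10.9, R 4.3.3 and limma 3.58.1 were used.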

Additional observations from a re-analysis of the deposited data

How the results depend on the processing

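The count of 1 family gene past 2-fold, Bcl2l11, held in every alternative but 2: it was 0 with no scaling and 0 with a 3-fold limit. With 1 probe, Bcl2l11 could not change under the probe rules. The median log2 difference over the 9 genes, −0.07 as reported, was −0.15 with median scaling, −0.12 with quantile normalization, −0.13 with the deposited log2 values, −0.11 with the dimmest detected probe and 0.42 with no scaling, where the median of all genes moved to 0.59. Relative to the median of all genes it was below 0 in all 14 settings, from −0.18 to −0.004, the latter with normexp. Settings that only shift an array by a constant could not change this value. The count of 14 is therefore no set of independent checks. No family gene with a difference over 0.25 changed direction; Cflar lay between −1.70 and −0.58 and Birc3 was at −1.43 or lower. No paired analysis was possible because only 1 pair of arrays existed and nothing was tested, and no replicate could be left out. The signal over background limits Bik and Bcl2l15, and the spread between cultures is unknown for every value.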
